A study of Mus musculus with 2 samples.

Results

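Immediate early genes are switched on within minutes of a stimulus, from factors already present in the cell. A list of 33 of them, chosen as symbols by their known function, with earlier results of these data known, was followed through cells sorted from the mouse arcuate nucleus and median eminence. All 33 were among the 20210 genes of the deposited table that joins both libraries, Cyr61 (now Ccn1) and Ctgf (now Ccn2) under their older symbols. By role there were 8 AP-1 and related bZIP factors (Fos, Fosb, Fosl2, Jun, Junb, Jund, Atf3, Maff), 4 EGR zinc finger factors (Egr1 to Egr4), 4 Krüppel-like factors (Klf2, Klf4, Klf6, Klf10) and 3 orphan nuclear receptors (Nr4a1, Nr4a2, Nr4a3). A further 10 were feedback and growth-arrest genes (Ier2, Ier3, Ier5, Btg2, Dusp1, Zfp36, Gadd45b, Gadd45g, Nfkbia, Sik1), 2 were secreted matricellular proteins (Cyr61, Ctgf) and 2 were genes tied to synaptic activity (Npas4, Arc).

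Calcium, cyclic AMP and growth factor signals reach these genes through kinases that act on CREB at cyclic AMP response elements and on serum response factor at CArG boxes. The AP-1, EGR and NR4A proteins then regulate a later set of genes, while products such as Dusp1, a phosphatase of MAP kinases, and Zfp36, which speeds the decay of many of these mRNAs, shut the response down. In the brain Fos, Egr1 and Arc are read as marks of recent neuronal activity, and Npas4 is known for answering calcium entry in neurons. Growth factors, stretch and stress switch many of the same genes on in glia, and warm enzymatic dissociation is known to do so in many tissues.

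Both libraries came from CD-1 mice at postnatal day 10 that carried an Ins2-Cre driver and a Cre-dependent tdTomato reporter, and held viable tdTomato-positive cells sorted after papain digestion. The control genotype was Ins2-Cre;tdTomato+/-, and the dHet genotype was Ins2-Cre;tdTomato+/-;Irx3/5+/-, that is, heterozygous for Irx3 and Irx5, which encode Iroquois homeobox factors. Each genotype was 1 library from 1 pool of 5 mice, so the spread between animals is unknown, and genotype, pool and handling cannot be told apart. The reporter stays on in any cell whose lineage once used the Ins2-Cre driver, so the sort is not a single cell type.

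A UMI stands for 1 counted mRNA molecule. Once called doublets were taken out, the control library held 3465 cells and 62795271 UMIs, and the dHet library 3908 cells and 71078450 UMIs. The targeted genes were scarce, with Irx3 at 1.497 CPM (94 UMIs) in the control and 0.591 CPM (42 UMIs) in the dHet library, and Irx5 at 2.87 CPM (180 UMIs) and 1.49 CPM (106 UMIs). CPM means UMIs per 1000000 UMIs of the cells concerned, and since each transcript is tagged at its 3′ end no scaling by gene length was needed. The dHet over control ratios of Irx3 and Irx5 were 0.395 and 0.520. The median mitochondrial share of UMIs was higher in the dHet library, at 5.91% against 4.52% in neuron-like cells, 6.27% against 5.05% in tanycyte-like cells and 6.80% against 6.54% in astrocyte-like cells. The libraries shared 4 cell barcodes.

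Cells were clustered without these 33 genes, so that levels of the immediate early genes did not shape the clusters. Clusters were named from marker genes, partly by those among their leading genes. The leading genes were drawn from all genes, and Cyr61 took a place among them in a tanycyte-like cluster and Atf3 in a cluster with pituitary markers. Neither gene was a marker. Neuron-like cells numbered 2253 in the control and 2891 in the dHet library, and their median depth was 22864 and 21287 UMIs. Glia-like cells comprised astrocyte-like cells (421 and 425), tanycyte-like cells (379 and 282), oligodendrocyte precursor-like cells (91 and 77), ependymal-like cells (52 and 52) and oligodendrocyte-like cells (30 and 39). Tanycytes are radial glia-like cells that line the floor of the third ventricle. Within the neurons, 6 types carried their marker peptides: Agrp/Npy (166 and 323 cells), Pomc (104 and 206), Sst (144 and 183), Ghrh/Th/Gal (114 and 167), Kiss1/Tac2 (111 and 105) and Vip/Grp/Avp (148 and 199). The leading genes of the larger of the clusters in the last type were Avp, Vip, Rgs16, Prok2, C1ql3 and Zic1, with Nms and Vipr2 following. Several of these are best known from the suprachiasmatic nucleus, a region that the labels do not name.

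The promoters of 5 of these genes are shown because their expression carries the contrasts described here. Fos and Junb were lower in the dHet library in all 6 neuron types, Egr4 was found mainly in neurons, Cyr61 mainly in glia, and Btg2 holds a complete palindromic cyclic AMP response element. Each sequence is the 250 bases before the RefSeq transcript start on GRCm38.p6, written 5′ to 3′ on the gene's strand, and contains no exon of the GENCODE annotation. Capitals mark TGACGTCA, the shorter TGACG that lies inside it, or the reverse complement of either.
Fos, chr12:85473640-85473889, plus strand: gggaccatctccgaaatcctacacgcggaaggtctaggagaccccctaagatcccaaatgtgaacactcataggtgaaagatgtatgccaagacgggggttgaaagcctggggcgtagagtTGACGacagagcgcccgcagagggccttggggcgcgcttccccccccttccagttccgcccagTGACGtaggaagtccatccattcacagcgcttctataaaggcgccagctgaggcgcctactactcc
Junb, chr8:84978749-84978998, minus strand: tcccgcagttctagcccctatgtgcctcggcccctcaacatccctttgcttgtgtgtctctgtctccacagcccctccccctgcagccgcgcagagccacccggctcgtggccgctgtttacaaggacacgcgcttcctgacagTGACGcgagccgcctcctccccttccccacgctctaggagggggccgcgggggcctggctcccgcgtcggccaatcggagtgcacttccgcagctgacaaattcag
Egr4, chr6:85513590-85513839, minus strand: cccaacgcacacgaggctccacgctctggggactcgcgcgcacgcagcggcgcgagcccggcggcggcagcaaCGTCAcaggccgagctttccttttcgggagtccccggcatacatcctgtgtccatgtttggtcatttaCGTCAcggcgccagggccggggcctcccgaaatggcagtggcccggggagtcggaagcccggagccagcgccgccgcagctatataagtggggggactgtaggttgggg
Cyr61, chr3:145649986-145650235, minus strand: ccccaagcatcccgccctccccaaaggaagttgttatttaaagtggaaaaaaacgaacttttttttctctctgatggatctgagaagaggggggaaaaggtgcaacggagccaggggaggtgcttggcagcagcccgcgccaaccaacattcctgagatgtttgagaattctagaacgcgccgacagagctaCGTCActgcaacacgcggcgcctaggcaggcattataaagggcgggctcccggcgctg
Btg2, chr1:134079156-134079405, minus strand: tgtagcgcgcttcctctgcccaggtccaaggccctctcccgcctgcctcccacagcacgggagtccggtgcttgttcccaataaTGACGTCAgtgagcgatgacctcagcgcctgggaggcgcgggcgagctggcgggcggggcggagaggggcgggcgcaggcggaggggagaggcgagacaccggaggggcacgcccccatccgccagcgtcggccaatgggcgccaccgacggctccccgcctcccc

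Counted from the transcript start, TGACG began at -129 and -66 in Fos, at -106 in Junb, at -177 and -109 in Egr4 and at -58 in Cyr61, and TGACGTCA began at -166 in Btg2. The RefSeq table held 32 windows for 26 of the 33 genes. Over 300 bases from 250 before to 50 after the start, read on both strands, TGACG occurred in 19 of these 32 windows (59.4%), against 20.8% of all 32851 windows in the table. The full TGACGTCA was in 3 windows (9.38%), against 1.79% of all, in Btg2, Dusp1 and Maff. A CArG box was in 5 windows (15.6%), against 1.63% of all, 4 of them windows of Egr2, some of which overlap, and the other of Zfp36. TGANTCA, the AP-1 site, was in 0 of 32, against 7.81% of all. These are matches of letters in a short window and say nothing of binding.

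The genes differed widely in level, and of the neuron and glial classes tanycyte-like cells held the most. All 33 together made up 0.151% of control and 0.112% of dHet neuron UMIs, 0.0961% and 0.0794% in astrocyte-like cells, and 0.577% and 0.354% in tanycyte-like cells. Jund, an AP-1 subunit that many cells make without a stimulus, was the most abundant in neurons at 592 CPM in the control and 603 CPM in the dHet library. Fos followed in the control neurons at 211 CPM, with Jun at 134.6, Klf6 at 88.9, Junb at 87.6 and Gadd45g at 83.4 CPM. The lowest in control neurons were Cyr61, Zfp36, Atf3, Egr3 and Egr2, from 0.283 to 0.923 CPM.

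**Figure D1:**
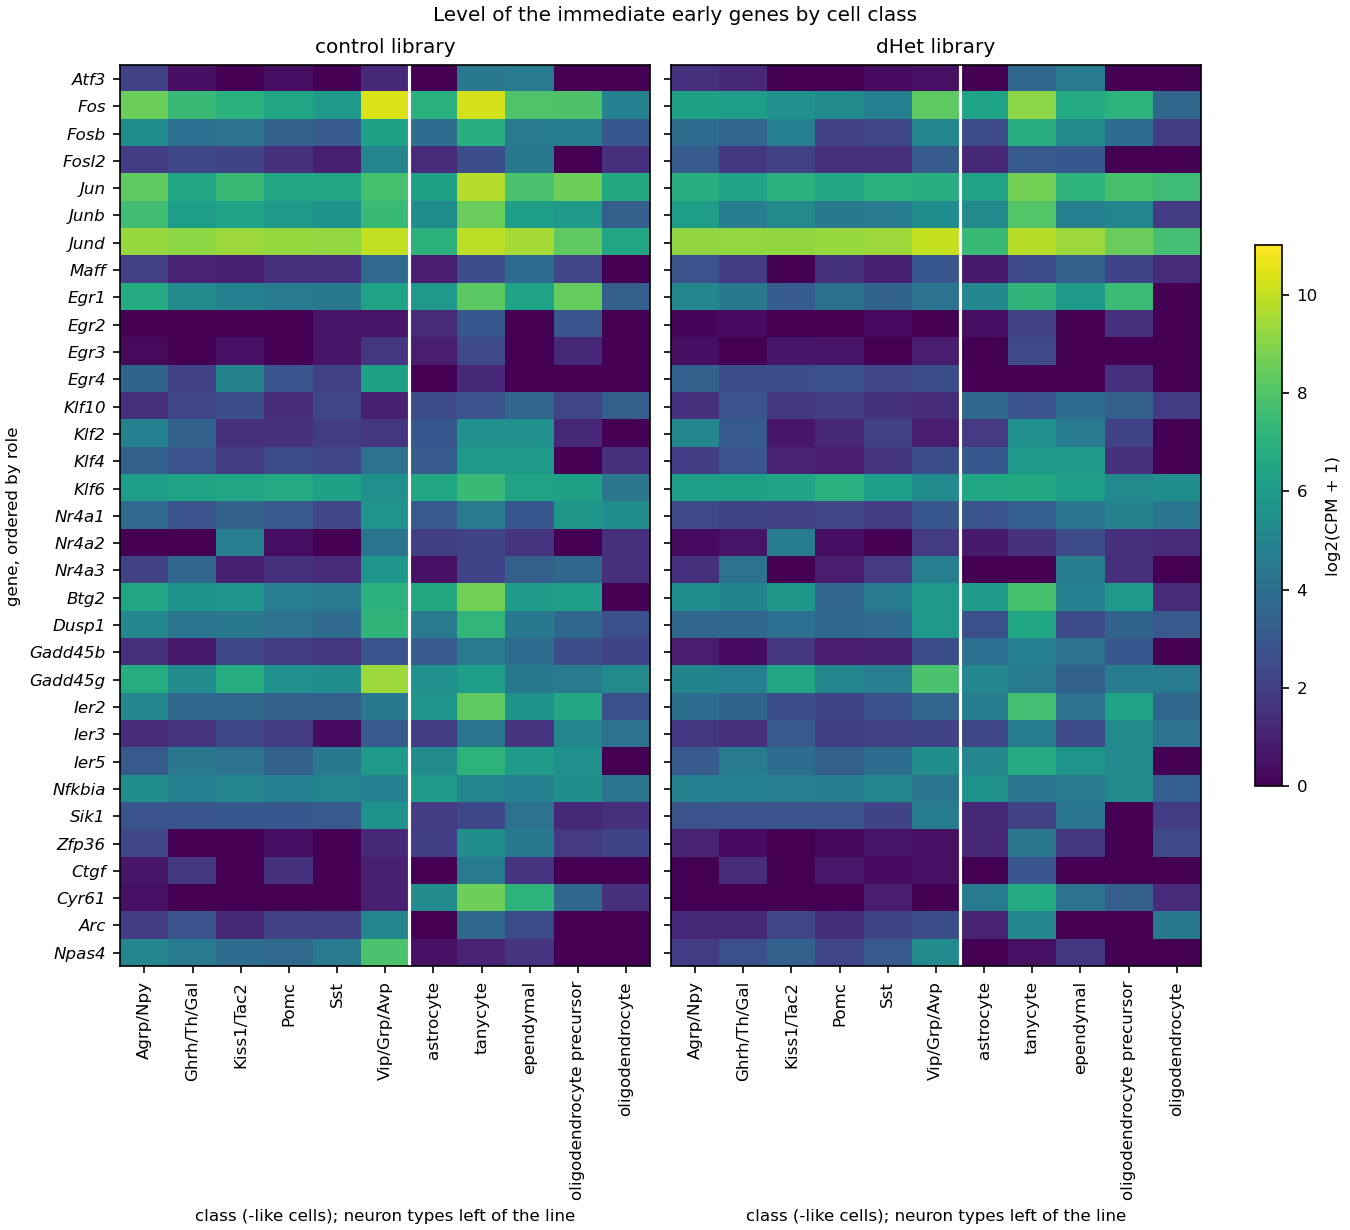
Level of each of the 33 genes (rows, grouped by role) in each cell class and neuron type (columns) in the control and the dHet library, as log2(CPM + 1) on the colour scale. Tanycyte-like cells and Vip/Grp/Avp neurons stand out in both libraries, with Fos at 1236 and 1351 CPM in the control and 550 and 307.5 CPM in the dHet library.

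Of the 33 genes, 3 were enriched in neuron-like cells, 18 in glia-like cells and 12 were shared. Enrichment meant a ratio of CPM of 2 or more in both libraries, with at least 50 UMIs. By the same rule 18.0% of 15440 genes were enriched in neurons, 24.7% in glia and 57.3% were shared. The neuron-enriched genes were Npas4, Egr4 and Sik1. Npas4, a bHLH-PAS factor, was at 35.8 CPM in control and 9.09 CPM in dHet neurons, against 0.740 and 0.286 CPM in glia, where 6 and 2 UMIs were counted in all. Egr4, a zinc finger factor of the Egr1 family, was at 11.96 and 7.24 CPM in neurons against 0.617 and 0.143 CPM in glia (5 UMIs and 1 UMI). Both passed 8-fold in both libraries, as did 5.58% of all genes. Sik1, a kinase that restrains CREB coactivators, was close to the limit, at 8.74 and 6.72 CPM in neurons against 3.95 and 3.29 CPM in glia.

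Cyr61, Zfp36, Ier2 and Atf3 were at least 8-fold higher in glia in both libraries, as were 9.24% of all genes. Cyr61, a matrix protein that binds integrins, had 1604 and 352 UMIs in glia, at 198 and 50.3 CPM. Neurons had only 15 and 17 UMIs of it, at 0.283 and 0.269 CPM, although they held most of the UMIs of both libraries. Zfp36 was at 22.6 and 8.15 CPM in glia against 0.509 and 0.301 CPM in neurons, a ratio of 44.4 in the control and 27.1 in the dHet library. Ier2, a nuclear protein of the early growth response, was at 174 and 93.5 CPM against 11.3 and 6.88 CPM. Atf3, a stress-induced bZIP factor, was at 10.6 and 5.58 CPM against 0.641 and 0.443 CPM, and had 0 UMIs in astrocyte-like cells of either library.

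By role, 5 of the 8 AP-1 genes were enriched in glia (Fos, Fosb, Jun, Junb, Atf3) and 3 were shared (Jund, Fosl2, Maff). The EGR genes were divided: Egr1 was enriched in glia, at 196 and 83.9 CPM against 43.5 and 21.65 CPM, Egr4 in neurons, and Egr2 and Egr3 were shared at under 5 CPM on each side. Klf2, Klf4 and Klf10 were enriched in glia and Klf6 was shared, at 88.9 and 90.95 CPM in neurons and 124 and 86.4 CPM in glia. None of the 3 NR4A receptors passed on either side. Among the 10 feedback genes, 7 were enriched in glia (Ier2, Ier3, Ier5, Btg2, Dusp1, Zfp36, Gadd45b), Sik1 in neurons, and Gadd45g and Nfkbia were shared. Of the 2 synaptic genes Npas4 was neuronal, whereas Arc, which encodes a cytoskeletal protein of dendrites, was shared, since its neuron over glia ratio was 1.08 in the control and 0.219 in the dHet library. These counts depend on the unit and on the cells: per cell, where the deeper neurons weigh more, 10 of the 33 genes were enriched in neurons and 4 in glia, against 57.3% and 11.6% of all genes. In CPM without tanycyte-like cells 5 and 7 were, against 19% and 24.3% of all genes. Egr4, Npas4, Ier2, Zfp36 and Cyr61 kept their side in all 12 settings compared.

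**Figure D2:**
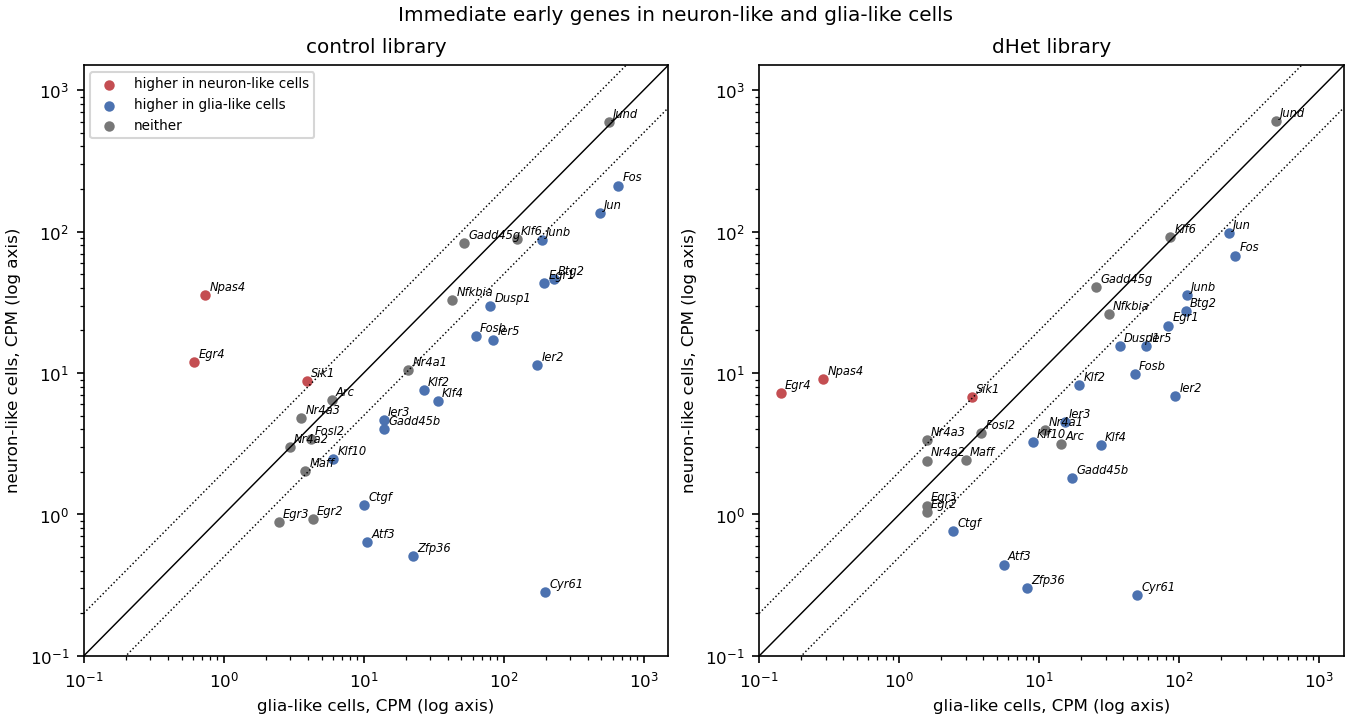
CPM in neuron-like cells (y axis, log scale) against glia-like cells (x axis, log scale) for the 33 genes, with 1 panel per library, a solid line at equal levels, dotted lines at a ratio of 2 in either direction, and colours for the genes enriched in both libraries. Npas4 and Egr4 lie far above the diagonal and Cyr61 and Zfp36 far under it in both libraries, while Jund, Klf6 and Nfkbia lie near the diagonal.

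The glial side was mostly a tanycyte pattern. Against neurons, 20 of 33 genes were at least 2-fold higher in tanycyte-like cells in both libraries, where 20.4% of all genes were, and only 5 in astrocyte-like cells (Ier2, Btg2, Zfp36, Gadd45b, Cyr61), where 20.6% were. In astrocyte-like cells 10 genes were at least 2-fold lower than in neurons, a share near the 27.3% of all genes. Jund was among them, with 341 and 492 UMIs in astrocyte-like cells. Fosl2 (4 and 4 UMIs there), Maff (2 and 2) and Sik1 (7 and 4) rested on few molecules. Egr4, Atf3 and Ctgf had 0 UMIs there in both libraries. A gene that reached the minimum of UMIs only through neurons had to come out lower. This count therefore describes the genes counted and sets no trait of the 33 genes in astrocyte-like cells. Fos shows the contrast between tanycyte-like and astrocyte-like cells. Its level was 127 and 82.7 CPM in astrocyte-like cells, 211 and 67.6 CPM in neurons and 1236 and 550 CPM in tanycyte-like cells. Among 6 classes (neurons and 5 glial classes), 18 of the 33 genes had their highest level in tanycyte-like cells in both libraries, as did 5.14% of 15440 genes. Nfkbia, the inhibitor of NF-κB, was the only one highest in astrocyte-like cells in both libraries (9.63% of all genes), at 66.7 and 48.8 CPM.

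In ependymal-like and oligodendrocyte precursor-like cells, which were fewer, the share of the 33 genes with their highest level there lay near that of all genes. Against neurons, 10 of 33 genes were at least 2-fold higher and 5 lower in ependymal-like cells in both libraries (21.5% and 25.1% of all genes), and 6 of 31 higher and 8 lower in oligodendrocyte precursor-like cells (16.2% and 20%). In oligodendrocyte precursor-like cells Egr1 was at 333 and 179 CPM, above its 302 and 144 CPM in tanycyte-like cells, and Ier3 and Nr4a1 were also highest there in both libraries, Nr4a1 at 55.9 and 28.9 CPM, so 3 of 33 peaked there against 10.2% of all genes. Ependymal-like cells, the ciliated lining of the ventricle, were highest for Atf3 (22.8 and 21.6 CPM), Klf4 (61.6 and 64.7 CPM), Klf10, Maff and Sik1, 5 of 33 against 16% of all genes. With 52 cells per library their levels rest on few molecules, Atf3 on 10 and 9 UMIs. Npas4 was not above 2.40 CPM in any of the 5 glial classes. A cluster with markers of the pars tuberalis, the pituitary tissue on the median eminence, was richest of the classes with 20 or more cells in the control library: its 54 cells had 17300 CPM of the 33 genes, with Fos at 3141, Jun at 2042 and Junb at 1671 CPM. Only 14 dHet cells fell into it, so it was not compared.

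Within tanycyte-like cells, a single cluster held most of the immediate early transcripts. The cluster led by Scn7a and Cldn10 had 86 of 379 control cells (22.7%) and 59 of 282 dHet cells (20.9%), but 64.7% and 61.5% of the UMIs of the 33 genes and 71.5% and 79.0% of the Fos UMIs. Socs3 and Cyr61 were also among its 10 leading genes. Compared with the larger cluster led by S100a6 and Crym (239 and 196 cells), 17 of the 23 genes with at least 50 UMIs were 2-fold or more higher in both libraries and 0 were lower, against 3.68% and 11.4% of all genes. A gene that reached 50 UMIs only through the Scn7a cluster, as Arc did, had to come out higher. This count therefore describes the genes counted and not the 33 as a set. Fos was at 3217 and 1875 CPM in the Scn7a cluster and at 461 and 151 CPM in the S100a6 cluster. Junb, its frequent partner, was at 1076 and 980 CPM against 77.8 and 43.75 CPM. Ier5, Jund, Klf4, Nfkbia, Gadd45b and Gadd45g were the 6 that did not pass, and Ier5 was at 102 and 81.7 CPM against 111 and 96.6 CPM.

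Among the neuron types, Vip/Grp/Avp neurons stood apart. Their 33 genes summed to 4621 CPM in the control and 2166 CPM in the dHet library, while the other 5 types lay between 1102 and 2172 CPM in the control and between 1048 and 1192 CPM in the dHet library. Of 27 genes with at least 50 UMIs over the 6 types, 14 were highest in Vip/Grp/Avp neurons in both libraries, against 12.9% of 12881 genes. Fos was at 1351 and 307.5 CPM there, and the next type was Agrp/Npy with 374 and 78.7 CPM. Gadd45g, a growth-arrest gene that answers many signals, was at 670 and 226 CPM, against 111 and 90.6 CPM in the next type, Kiss1/Tac2. Npas4 was at 233 and 38.9 CPM, against 30.9 CPM in control Agrp/Npy neurons and 9.35 CPM in dHet Kiss1/Tac2 neurons. Sst neurons had the lowest Fos of the 6 types in both libraries, at 60.3 and 26.2 CPM.

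Not every gene followed Fos across the types. Egr1 and Junb were highest in Agrp/Npy neurons, the hunger-promoting cells, in both libraries, Egr1 at 107 and 33.4 CPM and Junb at 198 and 68.05 CPM. Klf2, a factor better known from blood vessels, was also highest there, at 27.5 and 32.7 CPM, and was at 2.38 and 0.819 CPM in Vip/Grp/Avp neurons. Klf6 was lowest in Vip/Grp/Avp neurons, at 45.1 and 38.9 CPM, and highest in Pomc neurons, at 106 and 124 CPM. Nr4a2, a nuclear receptor known from dopamine neurons, was at 25.4 and 24.0 CPM in Kiss1/Tac2 neurons and had at most 2 UMIs per library in Agrp/Npy, Ghrh/Th/Gal, Pomc and Sst neurons. Nr4a3 was highest in Vip/Grp/Avp neurons at 53.2 and 25.4 CPM, followed by Ghrh/Th/Gal neurons at 11.4 and 16.04 CPM.

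Between the genotypes, many of these genes were lower in the dHet library in neuron-like and tanycyte-like cells, and fewer, on small counts, in astrocyte-like cells. A gene was counted as lower or higher when its CPM differed by 1.5-fold or more and it had at least 50 UMIs over both libraries in the class. In neurons 15 of 31 such genes were lower and 0 higher, against 2.14% of all genes lower and 2.18% higher. In tanycyte-like cells 13 of 23 were lower and 1 higher, against 4.0% and 3.32%, and in astrocyte-like cells 7 of 15 were lower and 1 higher, against 4.62% and 3.23%. The median log2 ratio of the genes counted, with 5 CPM added on each side, was -0.29 in neurons, -0.63 in tanycyte-like and -0.45 in astrocyte-like cells, while that of all genes was -0.02 in each. Over all glia-like cells 13 of 27 were lower and 1 higher, against 2.79% and 3.17%. Over all kept cells 22 of 33 were lower and 0 higher, against 4.13% and 2.01%, but this sum also moves with the makeup of the libraries. The pars tuberalis cluster, with 54 control and 14 dHet cells, held 592 of the 728 control Atf3 UMIs and 88 of the 176 control Egr2 UMIs, and Egr2 had a ratio of 0.537 over all cells and 1.13 in neurons. Small classes went the other way: the 33 genes summed to 414 CPM in 30 control and 572 CPM in 39 dHet oligodendrocyte-like cells, and to 1349 and 2812 CPM in 37 and 32 cells with markers of cycling, where Fos was at 142 and 486 CPM. A gene that reached 50 UMIs only through the library where it was high had to differ, so these counts describe the genes counted and not the 33 as a set.

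In neurons Fos was at 211 CPM (11219 UMIs) in the control and 67.6 CPM (4277 UMIs) in the dHet library, a ratio of 0.320 with a 95% interval of 0.309 to 0.3315 that covers counting error only. Npas4 had the lowest ratio, 0.254 (0.231 to 0.279). Junb was at 87.6 and 35.6 CPM, a ratio of 0.406 (0.386 to 0.4275). Nr4a1, a nuclear receptor induced by many stimuli, was at 10.5 and 3.97 CPM (ratio 0.380), and Gadd45b, Gadd45g, Klf4, Arc and Egr1 followed, with ratios from 0.455 to 0.498. Dusp1, Fosb, Btg2, Egr4, Ier2 and Ctgf completed the 15, from 0.522 to 0.650. The other JUN proteins, partners of Fos in AP-1, differed from Junb: Jun was at 134.6 and 97.15 CPM (ratio 0.722), short of the limit, and Jund was at 592 and 603 CPM (1.02, 1.00 to 1.03). Klf6 likewise stood at 88.9 and 90.95 CPM (1.02, 0.984 to 1.06). The other 13 genes counted in neurons ran from 0.691 for Atf3 and 0.697 for Nr4a3 through Sik1, Nfkbia, Nr4a2, Ier5 and Ier3 (0.769 to 0.969) to Klf2, Fosl2, Egr2, Maff, Egr3 and Klf10 (1.08 to 1.31), and Zfp36 and Cyr61 had under 50 UMIs.

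**Figure D3:**
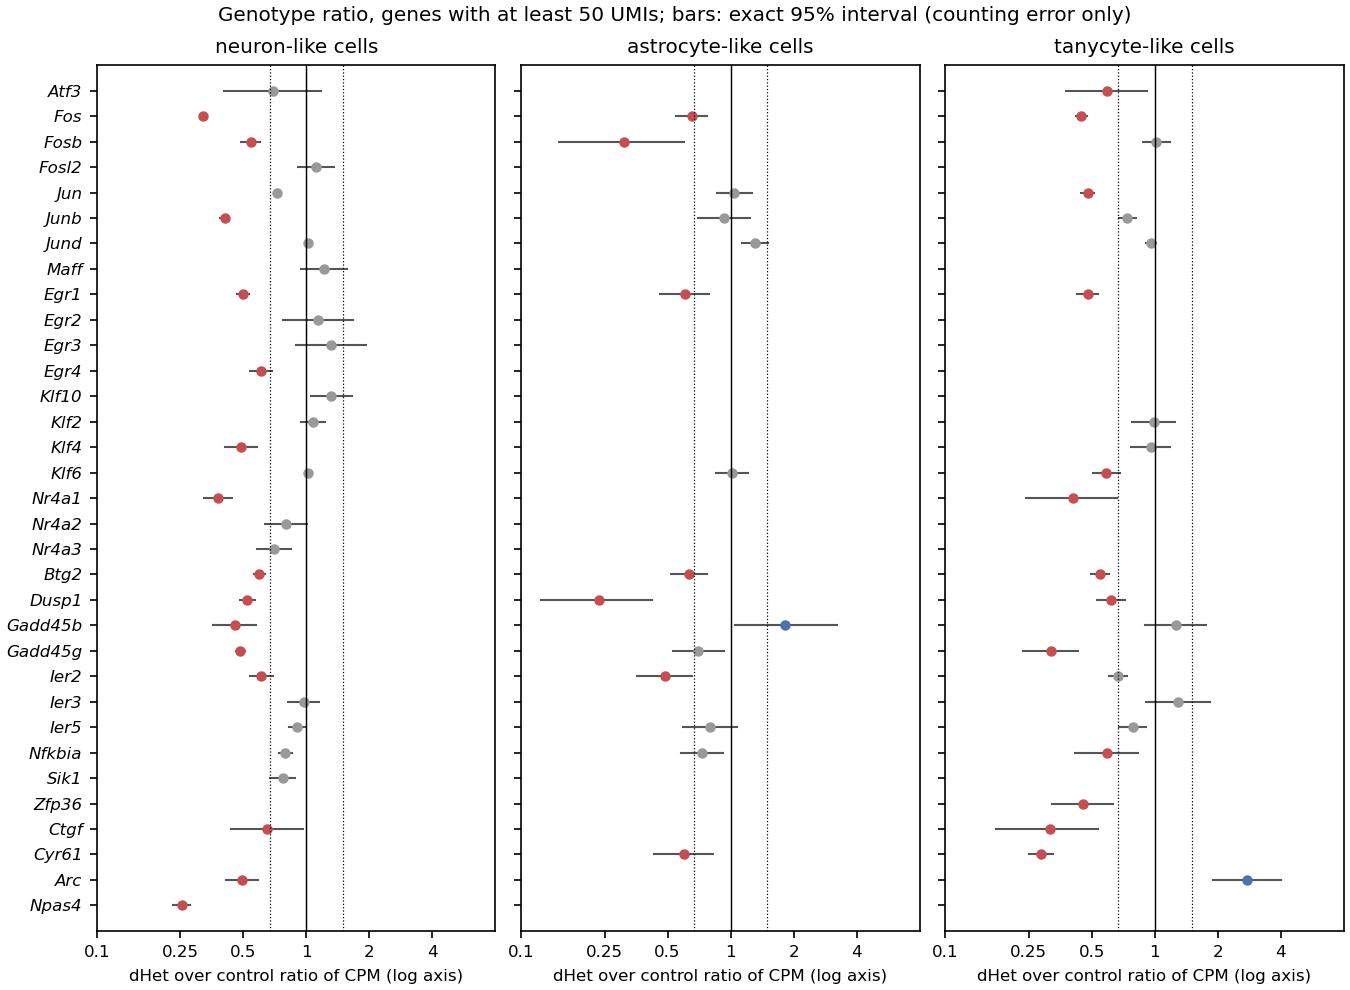
Ratio of CPM, dHet over control (log axis), for each gene with at least 50 UMIs in neuron-like, astrocyte-like and tanycyte-like cells, with exact 95% intervals that cover counting error only, dotted lines at 1.5-fold, and red and blue points for genes lower and higher by the limit. Fos, Egr1 and Btg2 lie below the lower line in all 3 classes, Jund lies near 1 in neurons and tanycyte-like cells, and Arc lies above the upper line in tanycyte-like cells alone.

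In tanycyte-like cells the matricellular genes had the lowest ratios. Cyr61 was at 376 CPM (1435 UMIs) in the control and 108 CPM (274 UMIs) in the dHet library, a ratio of 0.287 (0.251 to 0.327). Ctgf, its relative in the CCN family, was at 21.2 and 6.70 CPM (0.316, 0.175 to 0.537), an interval that holds the ratio of Gadd45g. Ctgf had 81 and 17 UMIs, and 5 control cells held 51.85% of the 81. Fos was at 1236 and 550 CPM (0.445, 0.419 to 0.4725), Jun at 868 and 415 CPM (0.478, 0.446 to 0.513) and Egr1 at 302 and 144 CPM (0.4785, 0.424 to 0.539). Unlike in neurons, Jun was past the limit here and Junb was not, at 353 and 261.5 CPM (0.741). Gadd45g, Nr4a1, Zfp36, Btg2, Klf6, Nfkbia, Atf3 and Dusp1 were also lower, from 0.3205 to 0.619. Fosb was at 116.5 and 118 CPM (1.02) and Klf4, a factor of epithelial differentiation, at 59.3 and 56.8 CPM (0.958). The others short of the limit were Ier2 (0.668), Ier5 (0.785), Jund (0.962), Klf2 (0.988), Gadd45b (1.26) and Ier3 (1.295), and 10 genes had under 50 UMIs.

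Fos and Cyr61 had lower levels in the dHet library in both of the larger tanycyte-like clusters. In the S100a6 cluster 10 of 16 genes were lower and 0 higher, against 4.7% and 3.14% of all genes, with Fos at 461 and 151 CPM (0.328), Dusp1 at 43.5 and 13.4 CPM (0.307) and Cyr61 at 108 and 34.6 CPM (0.321). In the Scn7a cluster, with too few cells for a count, Cyr61 was at 1089 and 361 CPM, Fos at 3217 and 1875 CPM, and Fosb at 293 and 442 CPM. Klf6 was at 431 and 175 CPM there and at 67.75 and 67.45 CPM in the S100a6 cluster, and without the Scn7a cluster its ratio in tanycyte-like cells was 1.06. Arc, the 1 gene higher in tanycyte-like cells (12.1 and 33.1 CPM, 2.75), had 46 and 84 UMIs, of which 43 and 82 were in the Scn7a cluster. Without the 5 cells richest in Arc over both libraries its ratio was 0.4025, without the 5 richest in each library it was 1.21, and without the Scn7a cluster it was 0.946.

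In astrocyte-like cells the counts were small and rested on few cells. Fos was at 127 CPM (323 UMIs) in the control and 82.7 CPM (232 UMIs) in the dHet library, a ratio of 0.653 (0.549 to 0.775). Btg2, an antiproliferative gene, was at 100 and 63.8 CPM (0.635) and Ier2 at 50.6 and 24.6 CPM (0.486). Egr1, Fosb, Dusp1 and Cyr61 were lower as well, with ratios of 0.604, 0.311, 0.235 and 0.597, while Jun, Junb and Klf6 lay between 0.927 and 1.04, Gadd45g, Nfkbia and Ier5 between 0.703 and 0.799, and Jund at 1.31. Gadd45b was the 1 gene higher, at 8.24 and 14.97 CPM (21 and 42 UMIs, 1.82). In the control library 5 cells held 29.1% of the Fos, 45.6% of the Jun and 60.6% of the Cyr61 UMIs of the class. When the 5 cells richest in each gene over both libraries were left out, 0 genes were lower and 2 higher. When the 5 richest of each library were left out, 2 of 12 were lower and 1 higher, and with finer clustering 0 were lower.

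The 6 neuron types differed in how many genes were lower. Vip/Grp/Avp neurons had 17 of 20 genes lower and 0 higher (4.31% and 2.9% of all genes), with a median log2 ratio of -1.18. Agrp/Npy neurons had 12 of 21 lower and 2 higher (3.07% and 3.26%), with a median of -0.93. The other 4 types had medians from -0.36 to -0.27. With no minimum of UMIs the median was -0.85 in Vip/Grp/Avp and -0.27 in Agrp/Npy neurons. It was then -0.27 in Kiss1/Tac2, -0.21 in Pomc, -0.12 in Ghrh/Th/Gal and -0.11 in Sst neurons. With 20 CPM added on each side it was -0.90 in Vip/Grp/Avp, -0.46 in Agrp/Npy and from -0.20 to -0.17 in the other 4 types. How far Agrp/Npy neurons stood from these 4 types thus depended on the genes counted and on the CPM added. Without the 5 cells richest in each gene over both libraries, the median was -1.02 in Vip/Grp/Avp and -0.55 in Agrp/Npy neurons. It was then -0.02 in Pomc, -0.07 in Sst, -0.13 in Ghrh/Th/Gal and -0.14 in Kiss1/Tac2 neurons. With 5 left out in each library these last 4 were -0.07, -0.16, -0.12 and -0.22. Of the genes counted in each of the other 4 types, 6 of 13 were lower in Sst (2.71% of all genes), 6 of 16 in Pomc (3.22%), 6 of 16 in Ghrh/Th/Gal (3.36%) and 4 of 14 in Kiss1/Tac2 neurons (4.36%). In these 4 types 1 gene was higher, Fosb in Kiss1/Tac2 neurons, at 16.9 and 26.3 CPM (36 and 45 UMIs). Higher genes were 1.68% of all in Sst, 2.14% in Pomc, 1.96% in Ghrh/Th/Gal and 2.38% in Kiss1/Tac2 neurons. The 1466 control and 1708 dHet neurons outside the 6 types had 13 of 30 genes lower and 2 higher (Egr3 and Klf10, both 1.57), against 1.91% and 1.86%, with a median of -0.22. With cells thinned to 4000 UMIs, which leaves fewer genes above the minimum, the lower genes numbered 6 of 10 in Agrp/Npy, 3 of 5 in Sst, 2 of 5 in Kiss1/Tac2, 1 of 4 in Ghrh/Th/Gal and 0 of 4 in Pomc neurons.

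Fos was lower in each of the 6 types, with ratios from 0.211 in Agrp/Npy to 0.435 in Sst neurons, and in each of the 13 neuron clusters that had 100 or more cells per library, with ratios up to 0.597. The clusters overlap the types: Sst, Kiss1/Tac2, Agrp/Npy and Pomc neurons were each 1 of them, and most Vip/Grp/Avp neurons formed another. Genes lower by the limit were 2.71%, 3.81%, 4.36%, 3.8%, 2.8%, 3.23%, 5.34%, 2.74%, 3.14%, 4.83%, 3.07%, 4.49% and 3.22% of all genes in these 13 clusters. Junb was lower in 6 of 6 types (0.231 to 0.478) and 11 of 13 clusters (0.142 to 1.225). Npas4 was lower in all 5 types with enough UMIs and in 12 of 12 such clusters, from 0.0909 in Agrp/Npy neurons, where 154 UMIs stood against 24, to 0.464. Egr1 was lower in 5 of 6 types, with Pomc neurons at 0.736 the exception. Jund lay between 0.895 and 1.095 and Klf6 between 0.862 and 1.18 over the 6 types. Jun ranged from 0.384 in Agrp/Npy (314 and 121 CPM) to 1.38 in Sst neurons (90.6 and 125 CPM).

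In Vip/Grp/Avp neurons the lowest ratio was that of Egr4, at 75.55 CPM (159 UMIs) in the control and 5.32 CPM (13 UMIs) in the dHet library, 0.0704. Nr4a1 was at 51.3 and 6.96 CPM (0.136), Arc at 32.3 and 5.32 CPM (0.165) and Npas4 at 233 and 38.9 CPM (0.167). These 4 genes are known to be induced by neuronal activity. A few cells carried much of their control level: 5 of 148 control cells held 66.2% of the Arc, 50.3% of the Egr4, 39.8% of the Nr4a1 and 24.9% of the Npas4 UMIs. Without the 5 richest cells over both libraries the ratio was 0.472 for Arc, 0.137 for Egr4, 0.217 for Nr4a1 and 0.215 for Npas4, and without the 5 richest in each library the 4 ratios lay between 0.0650 and 0.141. Egr1 at 81.25 and 17.2 CPM (0.212), Fos at 1351 and 307.5 CPM (0.228) and Junb at 174 and 40.1 CPM (0.231) came next, and Jund, at 1018 and 1056 CPM, did not differ by the limit. Egr4 was also low in dHet Kiss1/Tac2 neurons (29.15 and 5.26 CPM, 0.180) but at 10.8 and 9.59 CPM (0.885) in Agrp/Npy neurons. In a neuron cluster led by Ppp1r17, outside the 6 types, Egr4 went the other way, at 6.55 CPM (16 UMIs) in the control and 32.0 CPM (66 UMIs) in the dHet library (4.89), as did Egr2, at 11.5 and 25.2 CPM (2.20). In that cluster 4 of 17 genes were lower and 2 higher, against 5.34% and 2.13% of all genes. The 2 genes higher in Agrp/Npy neurons were Fosl2, at 2.81 and 8.30 CPM (14 and 71 UMIs, 2.96), and Maff, a small bZIP factor, at 3.21 and 5.96 CPM (16 and 51 UMIs, 1.86).

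**Figure D4:**
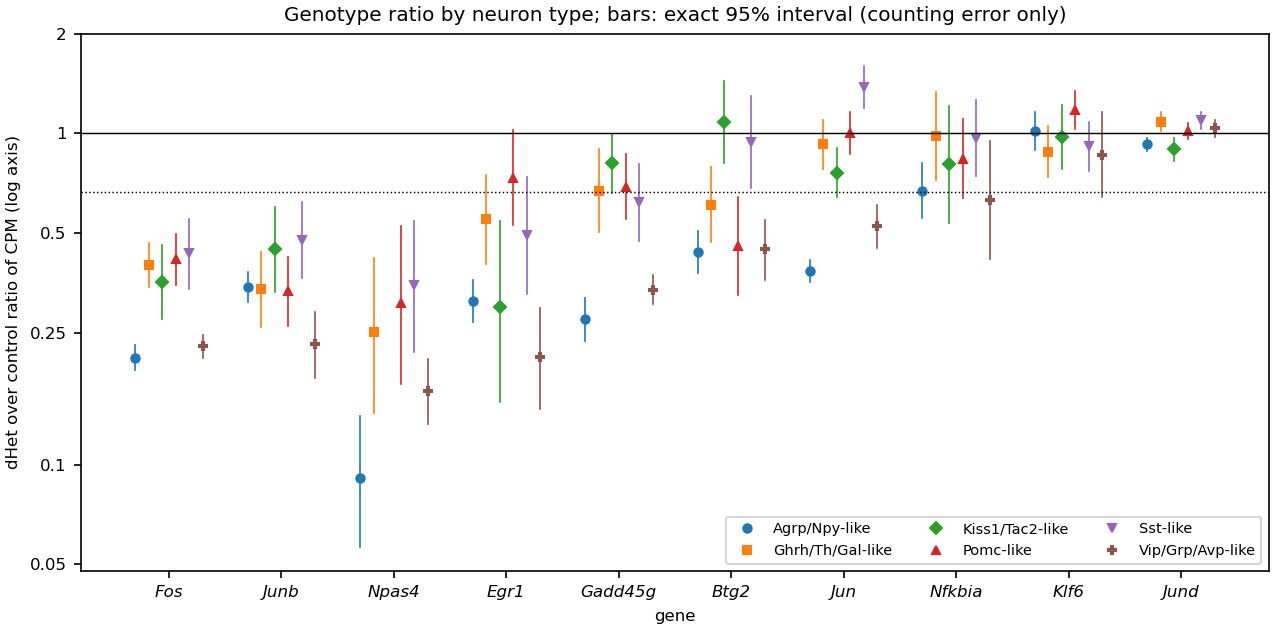
Ratio of CPM, dHet over control (log axis), of 10 of the genes in each of the 6 neuron types, with exact 95% intervals that cover counting error only and a dotted line at 1.5-fold lower (Npas4 had too few UMIs in Kiss1/Tac2 neurons). Fos and Junb lie below 1 in every type, Jund and Klf6 stay near 1, and Jun runs from 0.384 in Agrp/Npy to 1.38 in Sst neurons.

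The share of cells with a transcript differed too. To compare at equal depth, each cell was thinned to 4000 UMIs and shallower cells were left out (74 control and 57 dHet neurons). Fos was then found in 636 of 2179 control neurons (29.2%, Clopper-Pearson 95% interval 27.3% to 31.15%) and 447 of 2834 dHet neurons (15.8%, 14.45% to 17.2%). Before thinning these shares were 49.6% and 33.3%. In Vip/Grp/Avp neurons 73.4% of control and 39.5% of dHet cells had Fos (81.8% and 57.3% before thinning), and in tanycyte-like cells 55.75% and 34.8% (62.0% and 42.55%). No class here is known to lack Fos, so no background share could be taken for it. In astrocyte-like cells the shares were 21.3% and 20.8% (27.8% and 25.2% before thinning), with intervals that overlap. The median depth of the cells used was 14058 and 12575.5 UMIs in Vip/Grp/Avp neurons and 6687.5 and 6921 in astrocyte-like cells.

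Npas4 and Cyr61 lie on opposite sides, and the side that lacks each gives its background. Npas4 was in 224 of 2179 control neurons (10.3%) and 97 of 2834 dHet neurons (3.42%), and in 2 of 789 control (0.2535%) and 0 of 731 dHet glia-like cells, which allows a share of up to 0.410% when 0 is read as at most 3 cells. Before thinning the shares were 28.7% and 12.04% in neurons and 0.617% and 0.229% in glia. Cyr61 was in 118 of 348 control (33.9%) and 37 of 253 dHet tanycyte-like cells (14.6%), and in 1 of 2179 and 1 of 2834 neurons. Before thinning the shares were 41.2% and 20.6% in tanycyte-like cells, and 0.666% and 0.311% in neurons. The median depth of the cells used was 23372 and 21494 UMIs in neurons, 8883 and 7623 in glia-like cells and 10254.5 and 8319 in tanycyte-like cells.

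Across single tanycyte-like cells, Fos varied together with genes of the AP-1, EGR and feedback groups. Cells thinned to 4000 UMIs were ranked, and the 9 genes found in at least 20% of cells in both libraries were correlated, as a description over cells that share a library. Spearman's rho with Fos was 0.759 in the control (348 cells) and 0.673 in the dHet library (253 cells) for Egr1, and 0.616 and 0.609 for Junb. The feedback genes Ier2 and Btg2 had values of the same size, 0.635 and 0.561 for Ier2 and 0.636 and 0.460 for Btg2, and Jund had lower ones, 0.409 and 0.305. Even after thinning, Fos rose with the UMI total that a cell had before it, with a rho of 0.369 and 0.163. For Egr1 this rho was 0.3675 and 0.188 and for Junb 0.258 and 0.181. The part of that total in the values with Fos was not tested. Part of the joint variation with Fos lies between clusters. Within the S100a6 cluster rho was 0.561 and 0.468 for Egr1 and 0.299 and 0.253 for Junb, and within the Scn7a cluster it was 0.631 and 0.736 for Egr1 and 0.484 and 0.768 for Junb. Ier5, which is linked to the heat shock response, had a rho with Fos between -0.0822 and 0.0792 in the 3 tanycyte-like clusters of both libraries. Over all neurons only 3 genes, Jun, Jund and Klf6, reached 20% of cells in both libraries. Their rho with Fos lay between -0.0298 and 0.219. Fos, Egr1, Junb, Ier2 and Btg2 did not reach it in both, so their joint variation over all neurons was not tested. Over all astrocyte-like cells the 4 genes that reached it were Fos, Jund, Btg2 and Klf6. Of the pairs among these 3 and these 4 genes, 0 exceeded a rho of 0.3. Within neuron types some did: in Vip/Grp/Avp neurons 3 of 10 pairs in the control (up to 0.393) and 1 of 10 in the dHet library, in Sst neurons the single pair (0.309 and 0.384), and in Ghrh/Th/Gal neurons 1 of 3 in the dHet library (0.302).

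**Figure D5:**
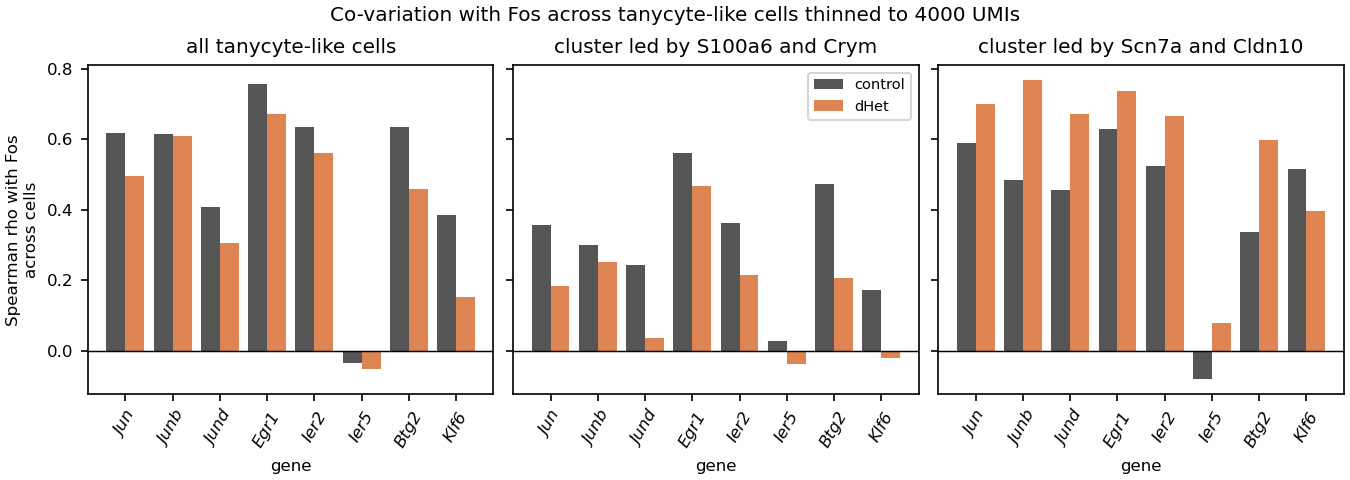
Spearman's rho with Fos across tanycyte-like cells thinned to 4000 UMIs, for 8 genes, in all such cells, in the cluster led by S100a6 and Crym and in the cluster led by Scn7a and Cldn10, with 1 bar per library. Egr1 has a rho of 0.759 and 0.673 over all cells and Ier5 lies near 0 in every panel.

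Over all neurons, few genes around this response passed the limit between the libraries, and in single types more did. Of 30 other immediate early genes, 2 of 27 counted were lower in neurons (Socs3, 0.617, and Csrnp1, 0.622) and 0 higher, with Rhob, Rgs2, Arid5b and Plk2, the most abundant, at ratios from 0.8555 to 0.973. In Kiss1/Tac2 neurons, however, 6 of 14 were lower (Gem, Ier5l, Rgs2, Arid5b, Errfi1 and Plk2, 0.458 to 0.662) and 1 higher (Klf9, 1.645), with a median log2 ratio of -0.30, against 4 of 14 and -0.27 for the 33 genes. In Vip/Grp/Avp neurons 4 of 17 were lower and 0 higher, also with a median of -0.30, and in Agrp/Npy neurons 4 of 23 were lower and 1 higher. In tanycyte-like cells 4 of 22 were lower (Cebpd, Gem, Socs3 and Per1, 0.538 to 0.665) and 3 higher (Trib1, Pim1 and Homer1, 1.53 to 1.765), and Socs3, a brake on cytokine signals, was at 190 and 116 CPM. Of 39 kinases and standing transcription factors upstream, among them Creb1 and Srf, 0 of 38 passed in either direction in neurons, and of 34 in tanycyte-like cells 1 was lower (Crtc2, 0.608) and 2 higher (Elk1, 1.795, and Camk2a, 2.18). Of 20 later, activity-regulated genes, 0 of 19 were lower in neurons and 2 higher, the cell cycle inhibitor Cdkn1a (24.1 and 37.9 CPM, 1.57) and Crh (0.490 and 1.11 CPM, 2.26), and Scg2 and Vgf, abundant precursors of secreted peptides, were at ratios of 1.09 and 1.04. In Agrp/Npy neurons 7 of the 13 later genes counted were higher (3.26% of all genes) and 1 lower, with a median log2 ratio of 0.33. Cdkn1a was at 5.01 and 35.8 CPM there (25 and 306 UMIs, 7.14), and Tac1, Nptx2, Rgs4, Nptx1, Sst and Vgf were higher too, with ratios up to 5.30. Of the other types, Pomc neurons had 2 of 14 higher and Ghrh/Th/Gal neurons 1 of 9. Sst and Vip/Grp/Avp neurons had 0 higher and 0 lower, and Kiss1/Tac2 neurons 0 higher and 1 lower. In tanycyte-like cells 3 of 8 were higher and 1 lower (median 0.37), and in astrocyte-like cells 3 of 5 higher and 1 lower (median 0.53), with Cdkn1a at 3.53 and 26.0 CPM (9 and 73 UMIs) in the latter. Of 15 MAP kinase phosphatases and Sprouty-type inhibitors, 2 of 15 were lower in neurons, Dusp6 (6.95 and 4.001 CPM, 0.576) and Spry2 (4.41 and 2.44 CPM, 0.5525). The shares of all genes past the limit given for each class apply to these lists too. Genes of these lists named as lower or higher were picked out after their values were seen.

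Heat shock chaperones, which answer protein damage and also dissociation, were measured beside these genes. Their 13 genes summed to 9712 CPM in control and 9732 CPM in dHet neurons (ratio 1.00), to 3201 and 3322 CPM in astrocyte-like cells (1.04) and to 7627 and 5899 CPM in tanycyte-like cells (0.773). The inducible pair Hspa1a and Hspa1b, picked out after their values were seen, was lower in all 3 classes. Hspa1a was at 30.8 and 15.97 CPM in neurons (0.518), 18.8 and 0.713 CPM in astrocyte-like cells (0.0379) and 400.5 and 76.9 CPM in tanycyte-like cells (0.192). These 2 genes are near-identical copies, so the counting may split their reads. Of the 13, 2 were lower and 1 higher in neurons (Bag3, 0.622 and 1.14 CPM, 1.83), 2 lower and 0 higher of 12 counted in astrocyte-like cells, and 5 lower (with Hspb1, Bag3 and Dnajb1, 0.514 to 0.629) and 0 higher in tanycyte-like cells. The part of dissociation and of the higher mitochondrial share in the lower immediate early genes was not tested. With cells limited to at most 10% mitochondrial UMIs, a limit chosen after seeing the data, 14 of the genes were lower in neurons and 13 in tanycyte-like cells.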

How the data were processed

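UMI counts were those the authors deposited, as a table joining both libraries and as a matrix per library. They came from 10x 3′ libraries processed with Cell Ranger 3.0.2 per the file headers, on mm10 per the submitters' processing notes; no gene annotation is named in these sources. The joined table held 3479 control and 3939 dHet cells and was the source of all main values. Of the 34089211 entries compared with the matrices 1485 differed, none in the 33 genes. Cells of the matrices missing from the table had over 20% mitochondrial UMIs (74 and 256) or at least 7505 and 7509 genes (141 and 83).

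Doublets were called per library with Scrublet (scanpy 1.11.5) at an expected rate of 4%. It removed 14 cells (0.402%) and 31 (0.787%), so in the control library it hardly worked, and doublets remain possible. Cells were clustered on 2000 variable genes, 30 principal components, 15 neighbours and Leiden resolution 1, leaving out the 33 genes, the 5 further gene lists and mitochondrial, ribosomal, haemoglobin and sex-linked genes. This gave 33 clusters, 21 of them neuronal. A cluster was called neuronal with at least 10 neuron markers found in 25% of its cells or more. In addition, no other class could lead its top genes, taken over the clusters short of those 10 markers. With top genes taken over all other clusters, another class did lead in the neuronal clusters headed by Foxb1 and by Slc17a8. Another class needed 3 of its markers found so and 1 among the 10 leading genes over all other clusters, and a neuron type 3 and 2. A cluster short of this stayed unnamed. Class names were rebuilt here and are not the study's. UMIs were summed per class and library and expressed per 1000000 UMIs (CPM).

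With 1 library per genotype no test was possible. Ratios carry exact conditional binomial 95% intervals (scipy 1.17.1) and shares Clopper-Pearson intervals; all cover counting error only. Ratios needed 100 cells per library and levels 20. The sums, intervals and calls were tested on simulated data. Genes were named by a rule: all 33 are accounted for, with values for the most abundant per role and those past the limit, and list examples are those with most UMIs unless stated. The 33 genes, lists and limits were chosen with earlier results of these data known. Alternatives covered cells, doublets, clustering, weighting, denominators, depth, thresholds and pseudocount.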

Additional observations from a re-analysis of the deposited data

Results flagged for a closer look

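For 5 genes the dHet over control ratio lay past the 1.5-fold limit in opposite directions in different cells. The difference between the cells was not tested in any of them, since each genotype had 1 library.

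Arc was lower in the dHet library in neuron-like cells (ratio 0.494) in Vip/Grp/Avp neurons (0.165) and in the neuron clusters led by Tbx19 (0.490) and Bcl11b (0.431), and higher in tanycyte-like cells (2.75), where 82 of its 84 dHet UMIs were in the cluster led by Scn7a and Cldn10. Egr4 was lower in neuron-like cells (0.606), Kiss1/Tac2 (0.180) and Vip/Grp/Avp neurons (0.0704) and the Bcl11b cluster (0.391), and higher in the neuron cluster led by Ppp1r17 (4.89) on 16 and 66 UMIs. Fosb was lower in neuron-like cells (0.542), astrocyte-like cells (0.311), Agrp/Npy (0.347), Pomc (0.356) and Vip/Grp/Avp neurons (0.431) and the clusters led by Tbx19 (0.627), Bcl11b (0.599) and Ppp1r17 (0.375) and a further cluster outside the 6 types (0.333), and higher in Kiss1/Tac2 neurons (1.55) on 36 and 45 UMIs. Fosl2 was higher in Agrp/Npy neurons (2.96) and lower in Vip/Grp/Avp neurons (0.261). Gadd45b was lower in neuron-like cells (0.455) and the Bcl11b cluster (0.422), and higher in astrocyte-like cells (1.82) on 21 and 42 UMIs.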

How the results depend on the processing

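No paired analysis was possible because each genotype had 1 library. Over all settings 253 counts stayed within 1.5 times the reported one and 85 did not, and of the gene ratios 1008 moved by less than their interval, 163 by more, and 18 changed direction; the cause was not tested where none is given. Depth limited the astrocyte-like cells and the smaller neuron types, where most genes had under 200 UMIs.

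Of the neuron genes, 9 were lower at 2-fold, against 15. Of astrocyte-like genes, against 7, the number lower was 2 from the per-library matrices, 0 at Leiden resolution 2, 4 with cells weighted equally, 0 without the 5 cells richest in each gene, 1 in cells of middle depth (within the interquartile range of UMIs), 3 after thinning, 15 with no minimum, 3 with a minimum of 200 UMIs and 3 at 2-fold. Of tanycyte-like genes, against 13, it was 8 after thinning and 8 at 2-fold. In Agrp/Npy neurons, against 12, it was 6 after thinning and 19 with no minimum. In Pomc neurons, against 6, it was 12 at Leiden resolution 0.5, 3 without the 5 richest cells, 3 in middle-depth cells, 0 after thinning, 14 with no minimum and 2 with a minimum of 200. In Sst neurons, against 6, it was 3 in middle-depth cells, 3 after thinning, 14 with no minimum and 3 with a minimum of 200. In Ghrh/Th/Gal neurons, against 6, it was 2 without the 5 richest cells, 3 in middle-depth cells, 1 after thinning, 11 with no minimum, 3 with a minimum of 200 and 3 at 2-fold. In Kiss1/Tac2 neurons, against 4, it was 2 after thinning, 12 with no minimum and 2 with a minimum of 200. In Vip/Grp/Avp neurons, against 17, it was 28 with no minimum and 9 with a minimum of 200. Fewer genes were counted after thinning or with a higher minimum, and more with none. Genes higher in the dHet library also grew in number in some settings. In astrocyte-like cells, against 1, the number higher was 3 with cells weighted equally, 3 in middle-depth cells and 4 with no minimum. In tanycyte-like cells, against 1, it was 3 with clusters weighted equally. With no minimum it was 6 in Agrp/Npy neurons, against 2, and 7 in Sst and 6 in Ghrh/Th/Gal neurons, against 0.

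Enriched genes numbered 10 in neurons, 4 in glia and 19 shared as UMIs per cell, and 5, 7 and 21 without tanycyte-like cells. Without the Scn7a and Cldn10 cluster, a choice made after seeing the data, 10 were enriched in glia and 20 shared, and at 3-fold 19 were shared. In astrocyte-like cells Egr1 had a ratio of 1.03 in middle-depth cells, and Cyr61 one of 1.01 from the matrices, 1.04 at Leiden resolution 2, 1.12 without the 5 richest cells and 1.57 in middle-depth cells. In tanycyte-like cells Atf3 was at 1.12 at Leiden resolution 0.5, Klf6 at 1.06 without the Scn7a cluster, and Arc at 0.4025 without the 5 richest cells, 0.171 in middle-depth cells and 0.946 without that cluster. Among neuron types the direction changed for Klf4 in Agrp/Npy (1.04) and Dusp1 in Ghrh/Th/Gal (1.25) without the 5 richest cells, for Btg2 in Pomc (1.01) and Gadd45g in Sst (1.14) after thinning, and for Btg2 (1.09) and Dusp1 (1.19) in Ghrh/Th/Gal and Fosb in Kiss1/Tac2 (0.986) in middle-depth cells. No value was obtained for Pomc neurons from the matrices, Sst neurons at Leiden resolution 2 or Ghrh/Th/Gal neurons at Leiden resolution 0.5. Leaving out the 5 cells richest in each gene took them from both libraries together, wherever they lay. With 5 left out in each library instead, 2 genes were lower in astrocyte-like cells, 3 in Pomc and 2 in Kiss1/Tac2 neurons, and Cyr61 in astrocyte-like cells had a ratio of 1.09. That setting, the limit of 10% mitochondrial UMIs and the settings without single clusters were chosen after seeing the data.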
